A study of Gallus gallus with 12 samples.

Results

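The effect of a high-fat diet (HFD) was set against itself in a pair of tissues of the same kind of chicken, so that each gene has a diet difference in abdominal fat and a diet difference in liver, and the diet by tissue interaction is the first minus the second. All 12 of the 12 libraries in the series entered it. They fall into 4 groups of 3 libraries, namely abdominal fat of chickens on the HFD (HN fat), abdominal fat of chickens on the normal diet (NN fat), liver of chickens on the HFD (HN liver) and liver of chickens on the normal diet (NN liver). Every bird was a female purebred Xinghua chicken labelled 8 weeks old, the age at which feeding began per the study's methods, and all 4 groups carried the same normal, non-dwarf genotype. Feeding on the diets went on for some weeks before slaughter, so the birds were older than the label when sampled. By the same methods, the HFD held more fat and slightly less protein and carbohydrate than the normal diet. Libraries of dwarf birds were not analysed here. The labels number the libraries 1 to 3 within each group, and the p-values below measure the spread between those libraries.

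In birds the liver is the main site of new fatty acid synthesis, and adipose tissue mostly stores triglyceride that arrives in lipoproteins made by the liver. In both tissues cholesterol synthesis and the uptake of LDL are controlled by SREBP transcription factors, which are held in the endoplasmic reticulum by sterols and released when sterols are scarce. Fatty acid synthesis is driven in liver by SREBP1, by carbohydrate sensing and by thyroid hormone, whose responsive protein Spot 14 (THRSP) is present in birds as a pair of paralogous genes.

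Values are FPKM, fragments per kilobase of transcript, scaled to the mapped fragments of the library. FPKM summed to 472622 to 504508 in fat libraries and 571235 to 642102 in liver libraries, and 12104 to 12412 genes reached 1 FPKM in fat against 10735 to 11272 in liver. The adipocyte markers (6 of 7 in the files, with ADIPOQ, PLIN1 and PPARG among the defining ones) summed to 13934 to 19146 FPKM in fat and 113.03 to 274.88 FPKM in liver, and the 16 hepatocyte markers summed to 105658 to 114148 FPKM in liver and 3579 to 10616 FPKM in fat. FABP4 made up most of the adipocyte sum in fat, with 10767 to 15730 FPKM there and 2.44 to 3.87 FPKM in liver. ADIPOQ had 110.03 to 209.69 FPKM in fat and 0.35 to 0.76 FPKM in liver. Among fat libraries, HN fat 3 was nearest to NN fat 3 (Pearson r = 0.991 on log2(FPKM + 1), against 0.944 to 0.977 for the other fat pairs), and its mean r with the NN fats was 0.981 against 0.961 with the other HN fats. Counts of calls over all genes and of the classes are therefore given with and without HN fat 3. HN fat 3 was singled out by these same values. Leaving out the HN fat nearest to the NN fats favours larger diet differences and more calls, so higher counts without it are no independent support. HN liver 2 had a T and B lymphocyte marker sum (15 of 17 markers) of 840.42 FPKM, against 111.79 to 141.58 in the other HN livers and 93.13 to 300.55 in NN livers. IGLL1, an immunoglobulin light chain-like gene, made up 738.5 FPKM of it, and without IGLL1 the other 14 summed to 101.92 FPKM in HN liver 2, against 31.2 and 94.84 in the other HN livers and 61.14 to 129.36 in NN livers, so that its lymphocyte sum stood apart through that gene. Over all genes tested, HN liver 2 had the lowest mean r of the livers, 0.951 with its own diet and 0.948 with the other. HN fat 2 had the lowest of the fats, 0.955 and 0.948.

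The contrast was fitted with limma on log2(FPKM + 1) for the 13111 genes whose mean reached 1 FPKM in at least one tissue, and differences below are on that scale, which understates changes of genes with low FPKM. No gene passed an adjusted p of 0.05 for the interaction (0 genes, 0%), and the smallest adjusted p was 0.128. At an unadjusted p under 0.05, 594 genes (4.53%) differed, 327 (2.49%) with a positive interaction, that is a diet difference more positive in fat, and 267 (2.04%) with a negative one. The balance turned with the scaling, to 299 positive and 361 negative after median-ratio scaling. Liver and fat libraries of the same diet and number were also treated as a pair, which the sources do not state. In that fit 4 genes passed the adjusted threshold, THRSPB (-3.37, adjusted p = 0.0382), LOC101748650 (-3.18), APOF (-2.72) and LOC100857622 (-1.71). An unadjusted p under 0.05 was found for 744 genes, of which 477 were shared with the 594. Without HN fat 3 the adjusted calls were 3, R3HDML (2.19, adjusted p = 0.0209), LOC107053870 (2.63, adjusted p = 0.0247) and ADTRP (-2.16, adjusted p = 0.0344), and the unadjusted count was 792.

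The diet effect averaged over fat and liver was tested on the same genes. This test took all 12 libraries as independent. Deviations of liver and fat libraries of the same diet and number correlated (mean r = 0.293). The averaged effect was not refitted with these libraries paired, so its standard errors and p-values may be too small. In all, 3 genes (0.0229%) passed, with an adjusted p of 0.0238 for each and all higher in HN, FDPS and LOC100857622 among them. Leaving out HN fat 3 gave 86 adjusted calls, these 3 included, 39 higher and 47 lower in HN, and 2892 unadjusted ones. Both counts are favoured by the choice of that library. R3HDML, LOC107053870 and ADTRP were among the 86, with averaged effects of 1.06, 1.29 and -1.05. Beside their interactions in that fit, these values place their diet difference in fat, with little in liver. At an unadjusted p under 0.05, 2236 genes (17.1%) were called, 590 (4.5%) higher and 1646 (12.6%) lower in HN. That split depended on scaling, since 26.4% of calls were higher in HN as deposited, 38.4% after quantile normalization and 53.8% after median-ratio scaling. Within a single tissue, 1 gene (0.00807%) passed the adjusted threshold in fat and 0 genes (0%) in liver, and unadjusted calls were 580 (4.68%) in fat and 1349 (12%) in liver by limma. In fat without HN fat 3, 1503 genes had an unadjusted p under 0.05, 652 higher and 851 lower in HN, and 1 an adjusted one.

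Across the 10561 genes whose mean reached 1 FPKM in both tissues, the diet difference in fat and that in liver had the same sign for 6997 genes (66.3%), with a Pearson r of 0.41, and the genes share libraries and scaling, so this describes the libraries only. A difference of at least 0.5 in size was found for 677 genes in fat and 1342 in liver, and for 262 genes in both, 229 with the same and 33 with opposite signs. HN libraries lay entirely above NN libraries for 333 genes (3.15%) in fat and 643 (6.09%) in liver, and entirely below for 763 (7.22%) in fat and 1609 (15.2%) in liver. These are counts of the values as deposited, and the balance of higher and lower moved with the scaling within each tissue, since 51% of unadjusted calls in fat and 28.6% in liver were higher in HN as deposited, against 65.6% in fat and 58.2% in liver after median-ratio scaling. In both tissues at once, HN and NN libraries were apart in the same direction for 270 genes (2.56%) and in opposite directions for 38 genes (0.36%). In these bulk tissues, fewer cells of a type and less RNA per cell cannot be told apart.

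**Figure D1:**
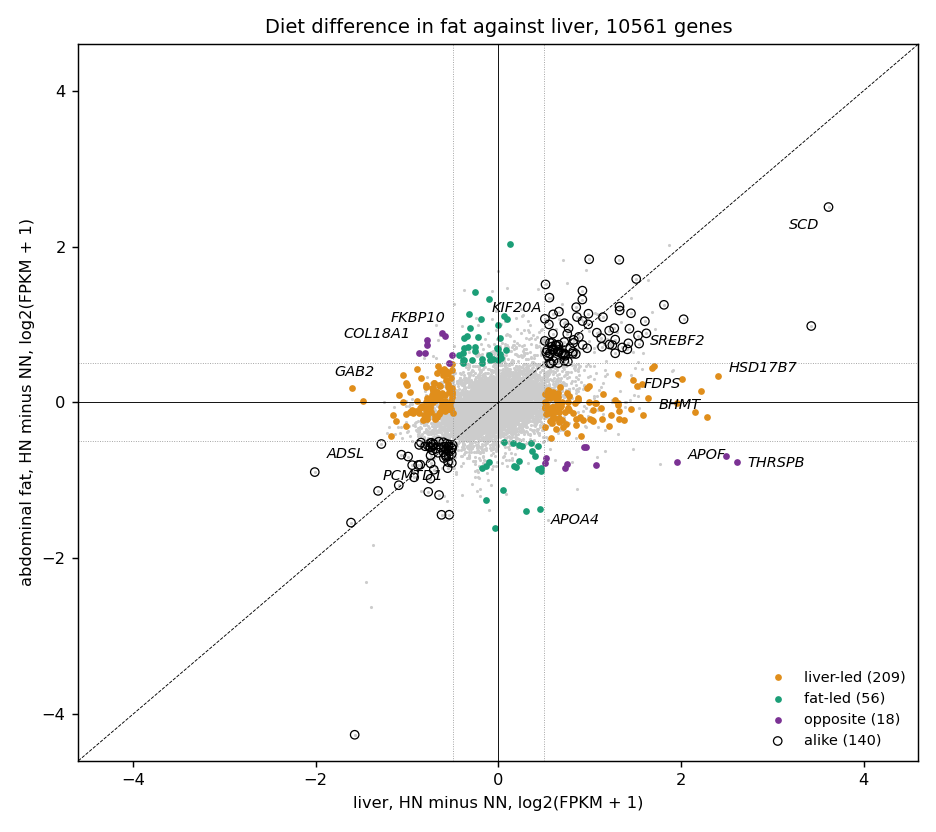
Diet difference in abdominal fat (vertical axis, HN minus NN, log2(FPKM + 1)) against that in liver (horizontal axis) for 10561 genes, with response classes coloured, dotted lines at 0.5 in size and a dashed line of equal differences. The 209 liver-led genes lie along the horizontal axis, the 56 fat-led genes along the vertical axis, the 18 opposite genes in the upper left and lower right, and the 140 alike genes in the other corners.

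For description, genes were placed in classes by an unadjusted interaction p under 0.05 and by differences of at least 0.5 in size. Of the 10561 genes, 18 (0.17%) were opposite, 209 (1.98%) liver-led (at least 0.5 in liver only), 56 (0.53%) fat-led, 3 (0.0284%) unequal with the same sign, and 163 (1.54%) differed with less than 0.5 in both tissues. Another class, alike, asked for an averaged p under 0.05, at least 0.5 in both tissues and the same sign, and held 140 genes (1.33%), including the 3 unequal ones. The interaction p of 449 of the 10561 genes (4.25%) was under 0.05. Just inside the limit of the liver-led class was MAP4K3 (-0.50 in liver) and just outside was CZH9ORF3 (-0.49), and for the fat-led class these were GCDH (-0.50 in fat) and PIK3R1 (0.49). Without HN fat 3 the classes held 39 opposite genes (all 18 among them), 140 liver-led (129 shared) and 169 fat-led (50 shared).

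Cholesterol synthesis was the gene group with the largest distance between the tissues among the 16 lists. Of 18 enzymes tested, 7 had a negative (2.04% over all genes) and 0 a positive (2.49%) interaction at an unadjusted p under 0.05, with a median interaction of -0.76, against 0.01 over all genes tested. The median diet difference was 0.31 in fat and 1.26 in liver. HN libraries lay entirely above NN libraries for 6 of the 18 enzymes in fat (3.44% over all genes) and 13 in liver (5.54%), and 14 were higher (4.5%) and 0 lower (12.6%) in HN in the averaged effect at an unadjusted p under 0.05, with FDPS the 1 adjusted call. Without HN fat 3, the interaction count stayed at 7 and the averaged effect had 7 adjusted calls among the 18. With liver and fat paired by number, 12 of the 18 had a negative interaction at an unadjusted p under 0.05. Outside the 16 lists, the 12 macrophage and granulocyte markers tested had a median interaction of -0.82, with 0 negative calls and 1 positive. Their sum (13 of 15 markers) was 677.18 to 2407.09 FPKM in HN livers and 728.73 to 1932.37 FPKM in NN livers.

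FDPS, the farnesyl diphosphate synthase of the mevalonate pathway, had 18.8, 13.5 and 13.9 FPKM in HN fat against 12.6, 12.6 and 11.7 FPKM in NN fat, and 73.2, 84.1 and 63.4 FPKM in HN liver against 22.9, 25.9 and 28.5 FPKM in NN liver. Every HN library exceeded every NN library in both tissues, by a wide margin in liver and a narrow one in fat. The averaged diet effect was 0.88 ± 0.11 (SE), and the interaction was -1.19 (95% interval -1.66 to -0.72, adjusted p = 0.286). FDPS rose in the averaged effect, a call that held in 4 of the 12 fits that leave out 1 library (adjusted p 0.0163 to 0.125).

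LOC100857622, annotated in the study's tables as a sterol delta-isomerase-like protein of cholesterol synthesis, had 29.9, 21 and 17.5 FPKM in HN fat against 18, 18.1 and 17.3 FPKM in NN fat, and 80.6, 65.7 and 51.2 FPKM in HN liver against 15.9, 17 and 13.3 FPKM in NN liver. HN and NN overlapped in fat and were far apart in liver. Its averaged effect was 1.16 ± 0.14 (SE) and its interaction -1.71 (95% interval -2.33 to -1.08, adjusted p = 0.196), and the averaged call held in 2 of 12 fits that leave out 1 library (adjusted p 0.0145 to 0.125).

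Of the other enzymes, HSD17B7, which acts on sterol ketones late in the pathway, had 7.99, 9.53 and 5.81 FPKM in HN fat against 6.17, 6.1 and 5.28 FPKM in NN fat, and 12, 34.4 and 10.8 FPKM in HN liver against 2.02, 2.09 and 2.96 FPKM in NN liver, with the highest value in HN liver 2. Its interaction was -2.06 (95% interval -3.14 to -0.98). The interaction was -0.79 (95% interval -1.26 to -0.31) for SC5D, a sterol desaturase, and -0.94 (95% interval -1.56 to -0.33) for DHCR7, which reduces the last precursor to cholesterol. SQLE, the squalene epoxidase, was higher in HN by 1.07 in fat and 2.03 in liver, and HMGCS1, at the entry of the pathway, differed by 0.48 in fat and -0.32 in liver, so the enzymes were not uniform.

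Regulators of this pathway were less one-sided. Of 13 genes of SREBP control and LDL uptake, 1 had a positive (2.49% over all genes) and 3 a negative (2.04%) interaction at an unadjusted p under 0.05, with a median of -0.35. SREBF2, which encodes SREBP2, had 43.4, 48 and 33 FPKM in HN fat against 21.8, 24.2 and 25.8 FPKM in NN fat, and 52.5, 86.1 and 44.6 FPKM in HN liver against 16.4, 21 and 21.4 FPKM in NN liver, so that the groups did not overlap in either tissue. Its averaged effect was 1.15 ± 0.16 (SE, adjusted p = 0.0571) and its interaction -0.79 (95% interval -1.49 to -0.08), which places it among the 3 unequal genes. SCAP, the escort protein of SREBP, had an interaction of -0.81 (95% interval -1.58 to -0.04) and INSIG2, which retains the complex in the endoplasmic reticulum, one of 0.62 (95% interval 0.10 to 1.14).

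Fatty acid synthesis and desaturation differed in the same direction. Of 19 genes, 5 had a negative (2.04% over all genes) and 0 a positive (2.49%) interaction at an unadjusted p under 0.05 (median -0.44). The median diet difference was 0.00 in fat and 0.59 in liver. The 5 genes were THRSPB, THRSP, ACACA, FASN and ME1, the malic enzyme that supplies NADPH. FASN, the fatty acid synthase, had 23.2, 33.1 and 17.8 FPKM in HN fat against 23.9, 23.5 and 17.8 FPKM in NN fat, and 165, 83.3 and 25.2 FPKM in HN liver against 14.4, 12.8 and 16.1 FPKM in NN liver, with HN liver 1 the highest and HN liver 3 nearest to the NN livers. Its interaction was -2.07 (95% interval -3.65 to -0.49). ACACA, the acetyl-CoA carboxylase, had an interaction of -1.31 (95% interval -2.30 to -0.33), with a diet difference of 0.00 in fat and 1.31 in liver.

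THRSP had 1862, 2138 and 2066 FPKM in HN fat against 2212, 2055 and 2553 FPKM in NN fat, and 2684, 854 and 1550.5 FPKM in HN liver against 646, 511 and 400.4 FPKM in NN liver. Fat levels overlapped between the diets, whereas the HN livers lay above the NN livers, and the interaction was -1.75 (95% interval -2.78 to -0.72). Its paralogue THRSPB, with which reads may be shared, had 411, 378 and 421 FPKM in HN fat against 769, 835 and 498 FPKM in NN fat, and 962, 466 and 398 FPKM in HN liver against 103, 113 and 65.9 FPKM in NN liver. In fat every HN library was below every NN library, and in liver every HN library was above, so HN livers reached or passed the levels of HN fats. The interaction of THRSPB was -3.37 (95% interval -4.37 to -2.37, adjusted p = 0.128), the smallest p-value of the contrast.

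SCD, the stearoyl-CoA desaturase, was named for its size after its values were seen. It had 103, 85.3 and 33.1 FPKM in HN fat against 5.03, 8.06 and 29.4 FPKM in NN fat, and 1053, 193 and 226 FPKM in HN liver against 64.1, 8.37 and 40.2 FPKM in NN liver. The HN libraries lay above the NN libraries in both tissues, with HN fat 3 the lowest of the HN fats and NN fat 3 the highest of the NN fats. Its averaged effect was 3.06 ± 0.61 (SE, adjusted p = 0.129) and its interaction -1.11 (95% interval -3.80 to 1.58), an interval too wide to place the tissues apart or together.

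**Figure D2:**
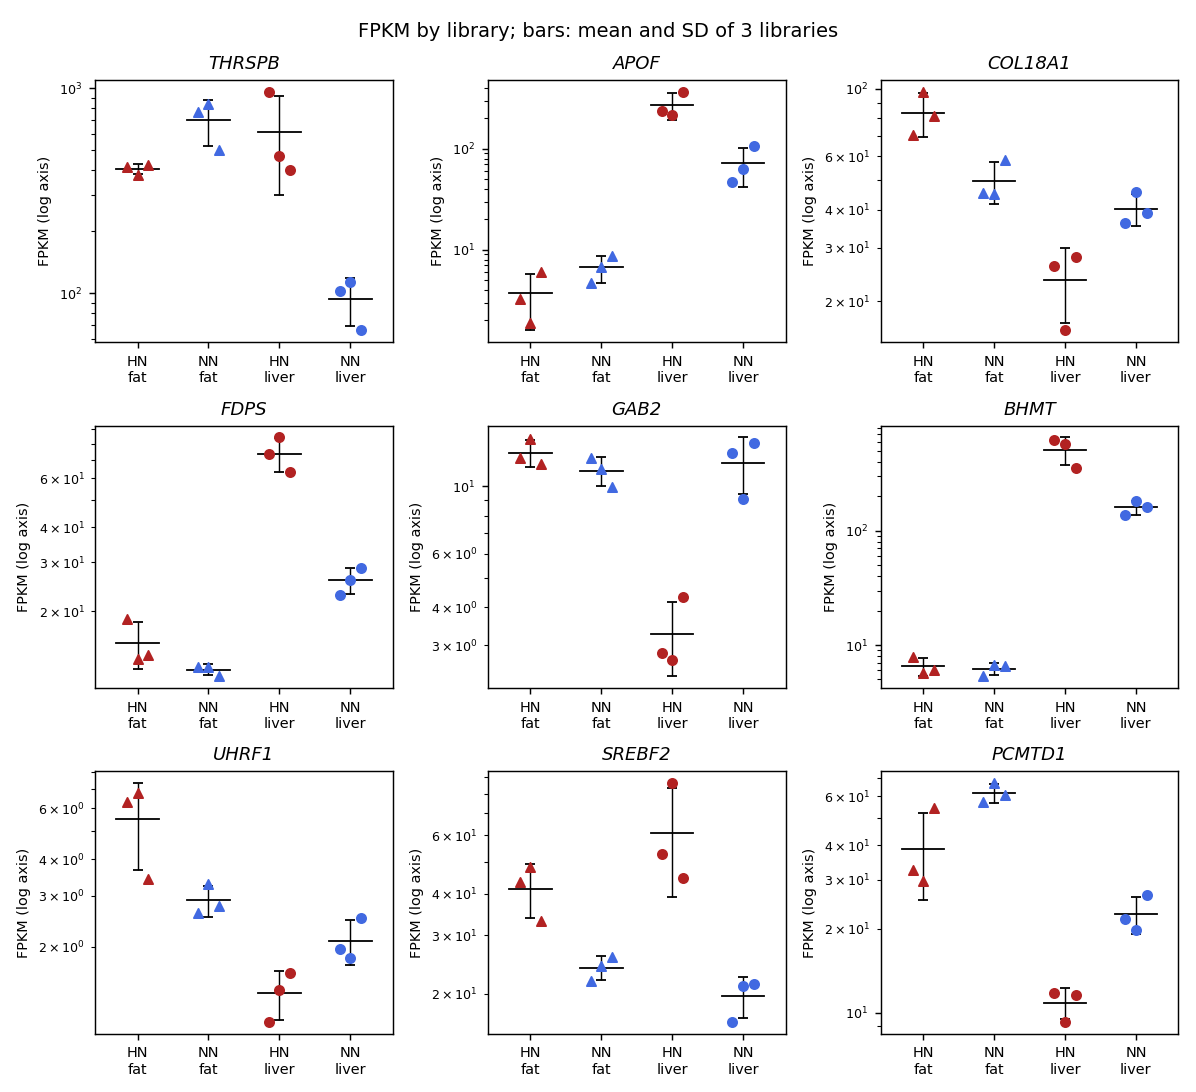
FPKM (vertical log axis) of 9 genes in each library of HN fat, NN fat, HN liver and NN liver, where a point is a library, the long line the mean and the bar the SD of 3 libraries. THRSPB, COL18A1 and UHRF1 have HN fats and HN livers on opposite sides of their NN groups. UHRF1 is classed as fat-led by its differences on the log2(FPKM + 1) scale. FDPS, GAB2 and BHMT differ mostly in liver, and SREBF2 and PCMTD1 have the same direction in both.

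Among the 18 opposite genes, 8 had a positive interaction (higher in HN fat, lower in HN liver) and 10 a negative one. For 6 of the 18, HN and NN did not overlap in either tissue (0.36% in opposite directions over the 10561 genes), a count that the choice of the class favours. The positive ones were COL18A1, NCALD, FKBP10, MTHFD2, GFRA2, ALPL, CENPQ and NSMF. COL18A1, a collagen chain of basement membranes, had 70.6, 97.9 and 81.3 FPKM in HN fat against 45.3, 45 and 58.5 FPKM in NN fat, and 26.2, 16 and 28 FPKM in HN liver against 36.1, 45.6 and 38.9 FPKM in NN liver, with no overlap in either tissue and an interaction of 1.52 (95% interval 0.87 to 2.17, adjusted p = 0.34). The endothelial marker sum (12 of 12, none at 0 in liver), which belongs to cells that rest on such membranes, was 87.99 to 139.65 FPKM in HN livers and 121.43 to 164.51 FPKM in NN livers, and its part in the liver value was not tested.

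FKBP10, a chaperone of collagen folding, had 70.9, 59.5 and 45.1 FPKM in HN fat against 33.1, 25.2 and 42 FPKM in NN fat, and 1.82, 4.05 and 3.51 FPKM in HN liver against 6, 7.32 and 4.64 FPKM in NN liver. NCALD, a neuronal calcium sensor, had 6.4, 6.09 and 5.59 FPKM in HN fat against 2.17, 4.54 and 4.24 FPKM in NN fat, and 4.77, 8.43 and 5.04 FPKM in HN liver against 9.15, 12.8 and 13.4 FPKM in NN liver. MTHFD2, a mitochondrial folate enzyme of proliferating cells, had 7.04, 11.9 and 4.95 FPKM in HN fat against 3.93, 2.66 and 4.34 FPKM in NN fat, and 9.11, 6.37 and 9.82 FPKM in HN liver against 12.4, 11 and 17 FPKM in NN liver. For all of these 3 genes HN fats were above and HN livers below their NN groups without overlap, with interactions of 1.58 (95% interval 0.76 to 2.40) for FKBP10, 1.51 (95% interval 0.74 to 2.28) for NCALD and 1.51 (95% interval 0.64 to 2.38) for MTHFD2.

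The negative opposite genes, lower in HN fat and higher in HN liver, were THRSPB, LOC101748650, APOF, GNMT, ORM1, FABP1, C8ORF4, PIT54, APOC3 and LOC107056565. LOC101748650 had 77.7, 47.23 and 60.06 FPKM in HN fat against 101.1, 108.2 and 86.06 FPKM in NN fat, and 140.1, 55.61 and 49.76 FPKM in HN liver against 14.13, 11.88 and 10.61 FPKM in NN liver, an interaction of -3.18 (95% interval -4.21 to -2.16). APOF, an apolipoprotein that inhibits cholesteryl ester transfer, had 3.25, 1.87 and 6.02 FPKM in HN fat against 4.68, 6.78 and 8.59 FPKM in NN fat, and 235.9, 216.7 and 367.8 FPKM in HN liver against 46.51, 63.72 and 105.8 FPKM in NN liver. Its groups overlapped in fat and not in liver, and the interaction was -2.72 (-3.87 to -1.57).

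Several of these are abundant liver transcripts found at a few FPKM in fat, among them FABP1, the fatty acid binding protein of liver, ORM1, an acute phase protein, and APOC3, which slows the clearance of triglyceride-rich lipoproteins. Of the 4 fat-led genes with a negative interaction that the rule names, GC, APOA4 and APOA2 were of the same kind and APOA1 was not. GC, the vitamin D binding protein, had 1.32, 1.33 and 1.89 FPKM in HN fat against 3.67, 5.04 and 2.04 FPKM in NN fat, and 4228, 4272 and 3545 FPKM in HN liver against 3175, 3492 and 4048 FPKM in NN liver. APOA4, an apolipoprotein, had 1.99, 1.26 and 1.68 FPKM in HN fat against 5.88, 12 and 2.54 FPKM in NN fat, and APOA2, a protein of HDL, had 3.32, 4.24 and 3.92 FPKM in HN fat against 9.46, 28.5 and 5.5 FPKM in NN fat, each with NN fat 2 the highest and no overlap between HN and NN fats. APOC3 had 8.63, 5.17 and 8.59 FPKM in HN fat against 12.5, 26.9 and 7.7 FPKM in NN fat, and there the groups overlapped.

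Hepatocyte markers in fat are given beside these values. The sum of the 16 markers (none at 0) was 3579 to 7887 FPKM in HN fats and 8658 to 10616 FPKM in NN fats, nearly all of it APOA1, which birds also make outside the liver. Without APOA1 the other 15 summed to 100.74, 123.88 and 152.08 FPKM in HN fats and 115.63, 233.81 and 151.48 FPKM in NN fats, so that the groups overlapped. Of the 15, 11 had a lower mean in HN fat, and 10 were at their highest in NN fat 2. Of the 16, 15 were tested, APOA1 included. HN fats lay entirely below NN fats for 4 of these (APOA1, FGA, FGB and FGG, 6.64% over all genes) and entirely above for 0 (3.44%). Their median diet difference was -0.52 in fat and 0.14 in liver, with a median interaction of -0.63. Over all genes these medians were -0.06, -0.06 and 0.01. Over all genes tested, 4930 of 13111 were higher in HN fat, so lower was the more common direction. Without NN fat 2 the interaction was -0.76 for GC, -1.37 for APOA4 and -1.08 for APOA2, against -0.99, -1.83 and -1.69 with it. The part of hepatocyte RNA in these genes was not tested.

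APOA1, the main protein of HDL, was abundant in both tissues, with 5189, 3455 and 7735 FPKM in HN fat against 10501, 8947 and 8506 FPKM in NN fat, and 33052, 41036 and 48616 FPKM in HN liver against 27734, 25854 and 34894 FPKM in NN liver. HN fats lay below NN fats while the livers overlapped, the diet difference was -0.84 in fat and 0.47 in liver, and the interaction was -1.31 (95% interval -2.16 to -0.46), or -1.33 without NN fat 2 and -1.60 without HN fat 3.

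The 34 fat-led genes with a positive interaction included UHRF1, MCM4 and KIF20A of the cell cycle. UHRF1, which maintains DNA methylation in S phase, had 6.33, 6.76 and 3.42 FPKM in HN fat against 2.62, 3.29 and 2.75 FPKM in NN fat, and 1.1, 1.42 and 1.62 FPKM in HN liver against 1.96, 1.82 and 2.51 FPKM in NN liver. The HN livers of UHRF1 lay below the NN livers without overlap, and its diet difference was 0.70 in fat and -0.38 in liver. KIF20A, a mitotic kinesin, had 5.76, 4.04 and 1.99 FPKM in HN fat against 0.9, 1.53 and 1.31 FPKM in NN fat, and 3.52, 3.52 and 4.8 FPKM in HN liver against 4.51, 5.1 and 4.25 FPKM in NN liver. In both genes HN fat 3 was the lowest of the HN fats and still above the NN fats, and the interaction was 1.08 (95% interval 0.43 to 1.73) for UHRF1 and 1.26 (95% interval 0.46 to 2.05) for KIF20A. Over the list of 76 cell cycle genes tested, 4 had a positive (2.49% over all genes) and 0 a negative (2.04%) interaction at an unadjusted p under 0.05 (UHRF1, MCM4, ANLN and MKI67) and the median was 0.10, with median diet differences of 0.21 in fat and 0.07 in liver. ANLN and MKI67 reached 1 FPKM in fat only (liver means 0.24 and 0.38 FPKM), so their interactions mostly reflect the fat difference. At an unadjusted p under 0.05 within a tissue, 18 of the 76 were higher in HN fat (2.39% over all genes) and 1 was lower (2.29%), and of the 55 that were tested in liver 1 was higher (3.42%) and 0 were lower (8.54%) in HN liver.

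Of 28 collagens tested, 5 had a positive (2.49% over all genes) and 0 a negative (2.04%) interaction at an unadjusted p under 0.05 (COL18A1, COL13A1, COL5A1, COL23A1 and COL12A1), with a median of 0.39, and median diet differences of 0.39 in fat and -0.01 in liver. Only 15 of the 28 reached 1 FPKM in both tissues, with a median interaction of 0.56. COL23A1 had a mean of 0.07 FPKM in liver and COL13A1 one of 0.21 FPKM in fat, where differences are pressed towards 0. COL5A1, a fibrillar collagen chain, had 122, 144 and 85.2 FPKM in HN fat against 69.2, 69.9 and 71 FPKM in NN fat, and 6.97, 5.05 and 4.72 FPKM in HN liver against 6.24, 5.34 and 5.21 FPKM in NN liver, with an interaction of 0.72 (95% interval 0.13 to 1.30). For 14 of the 28, HN fats lay entirely above NN fats (3.44% over all genes tested). Without HN fat 3, 12 collagens had a positive and 1 a negative interaction at that threshold, and 3 (COL8A1, COL1A2 and COL1A1) passed the adjusted threshold in the averaged effect.

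SERPINH1, the collagen chaperone HSP47, had 567, 622 and 404 FPKM in HN fat against 404, 323 and 351 FPKM in NN fat, and 26.7, 21.5 and 27.2 FPKM in HN liver against 31.2, 23.8 and 25.9 FPKM in NN liver, with an interaction of 0.64 (95% interval 0.08 to 1.19). FBLN5, a protein of elastic fibres, had 15.9, 18.7 and 14 FPKM in HN fat against 9.74, 11 and 11.6 FPKM in NN fat, and 4.73, 2.58 and 2.68 FPKM in HN liver against 4.45, 4.22 and 4.78 FPKM in NN liver, with an interaction of 0.92 (95% interval 0.35 to 1.49). Smooth muscle markers (7 of 7, none at 0) summed to 393.28 to 639.35 FPKM in HN fats and 269.67 to 467.26 FPKM in NN fats, and their part in the collagens and these genes was not tested. HSD17B1, an enzyme that forms oestradiol, had an interaction of 0.93 (95% interval 0.33 to 1.53).

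The 209 liver-led genes were divided between the directions, 108 with a positive and 101 with a negative interaction. For 187 of the 209 the HN and NN livers did not overlap, against 6.09% above and 15.2% below over the 10561 genes. The class was chosen by differences in these same libraries, which favours such a count. GAB2, an adaptor of receptor tyrosine kinases, had 12.4, 14.3 and 11.8 FPKM in HN fat against 12.4, 11.4 and 9.91 FPKM in NN fat, and 2.84, 2.68 and 4.31 FPKM in HN liver against 12.9, 9.09 and 13.9 FPKM in NN liver. The fats overlapped and the HN livers lay far below the NN livers, with an interaction of 1.78 ± 0.26 (SE, adjusted p = 0.128). EGFR, SHC2 and RBMS1 had smaller interactions in the same direction. EGFR, the epidermal growth factor receptor, had 12.2, 13.4 and 12.8 FPKM in HN fat against 12.4, 11.8 and 13.4 FPKM in NN fat, and 14.6, 11.7 and 12.1 FPKM in HN liver against 22.1, 20.8 and 20.3 FPKM in NN liver, and its interaction was 0.71 (95% interval 0.36 to 1.07). SHC2, an adaptor protein, had an interaction of 1.17 (95% interval 0.56 to 1.77), and RBMS1, an RNA-binding protein, one of 0.85 (95% interval 0.43 to 1.26). For SHC2 and RBMS1, HN fats lay just above NN fats and HN livers below NN livers, without overlap in either tissue.

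BHMT, which remethylates homocysteine with betaine, had 7.88, 5.68 and 6.08 FPKM in HN fat against 5.36, 6.68 and 6.6 FPKM in NN fat, and 617, 572 and 353 FPKM in HN liver against 139, 183 and 160.3 FPKM in NN liver. No difference was visible in fat, HN livers were all above NN livers, and the interaction was -1.58 (95% interval -2.23 to -0.93). USP5, a deubiquitinase of free ubiquitin chains, had 23.6, 21.8 and 23.9 FPKM in HN fat against 24.8, 22.3 and 21.7 FPKM in NN fat, and 21.9, 20.4 and 21.6 FPKM in HN liver against 12.3, 11.4 and 12.6 FPKM in NN liver, the narrowest interval of the genes named by class at -0.75 (95% interval -1.07 to -0.44). THEM4, an acyl-CoA thioesterase, had an interaction of -0.85 (95% interval -1.22 to -0.48), with HN fats just below NN fats and HN livers above NN livers.

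The liver-led class also held CPT1A. CPT1A, which admits fatty acids to mitochondria, had 30.8, 28.2 and 35 FPKM in HN fat against 30.1, 36.2 and 34 FPKM in NN fat, and 150.1, 119.9 and 142 FPKM in HN liver against 249, 228 and 235 FPKM in NN liver, and its interaction was 0.70 (95% interval 0.31 to 1.09). Of the 26 genes of oxidation and PPARA targets, 2 had a positive (CPT1A and ACSL1, 2.49% over all genes) and 1 a negative (2.04%) interaction at an unadjusted p under 0.05. The median was 0.11.

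Of 17 genes of triglyceride synthesis and lipid droplets, 1 had a positive (2.49% over all genes) and 2 a negative (2.04%) interaction at an unadjusted p under 0.05. Median diet differences were -0.12 in fat and 0.23 in liver. CIDEC, a lipid droplet protein, had 462, 437 and 404 FPKM in HN fat against 628, 444 and 455 FPKM in NN fat, and 166, 251 and 177 FPKM in HN liver against 71.2, 123 and 104 FPKM in NN liver, and an interaction of -1.21 (95% interval -1.90 to -0.52). It made up most of the adipocyte marker sum in liver, which was 186.76 to 274.88 FPKM in HN livers and 113.03 to 157.64 FPKM in NN livers. ABHD5, the activator of the lipase ATGL, had an interaction of -1.40 (95% interval -2.40 to -0.41), and MGLL, the monoglyceride lipase, one of 0.63 (95% interval 0.08 to 1.18).

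Glucose metabolism held 4 negative (2.04% over all genes) and 0 positive (2.49%) interactions among 37 genes at an unadjusted p under 0.05, with a median of 0.02. TXNIP, an arrestin-like protein induced by glucose, had 967, 797 and 955 FPKM in HN fat against 1106, 1266 and 889 FPKM in NN fat, and 289, 236 and 392 FPKM in HN liver against 172, 169 and 228 FPKM in NN liver, and an interaction of -0.92 (95% interval -1.56 to -0.28). PYGL, the liver glycogen phosphorylase, had an interaction of -0.81 (95% interval -1.37 to -0.24). SLC2A2, the glucose transporter GLUT2, and KHK, the fructokinase, were expressed in liver only and are given with the genes of that kind.

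The circadian clock list of 21 genes had 1 positive (2.49% over all genes) and 1 negative (2.04%) interaction at an unadjusted p under 0.05. CRY1, a repressor of the clock, had 44, 63.1 and 37.7 FPKM in HN fat against 35.7, 30.6 and 39.4 FPKM in NN fat, and 19, 17.1 and 16.6 FPKM in HN liver against 31.2, 27.9 and 25.1 FPKM in NN liver, and BHLHE41, another repressor, had 2.71, 3.46 and 5.94 FPKM in HN fat against 5.97, 3.83 and 4.51 FPKM in NN fat, and 12.4, 8.74 and 6.64 FPKM in HN liver against 3.25, 2.98 and 2.37 FPKM in NN liver. Fats overlapped for both genes and livers did not, with interactions of 1.06 (95% interval 0.51 to 1.62) for CRY1 and -1.61 (95% interval -2.42 to -0.80) for BHLHE41. The hour of sampling is not given in the sources used here.

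**Figure D3:**
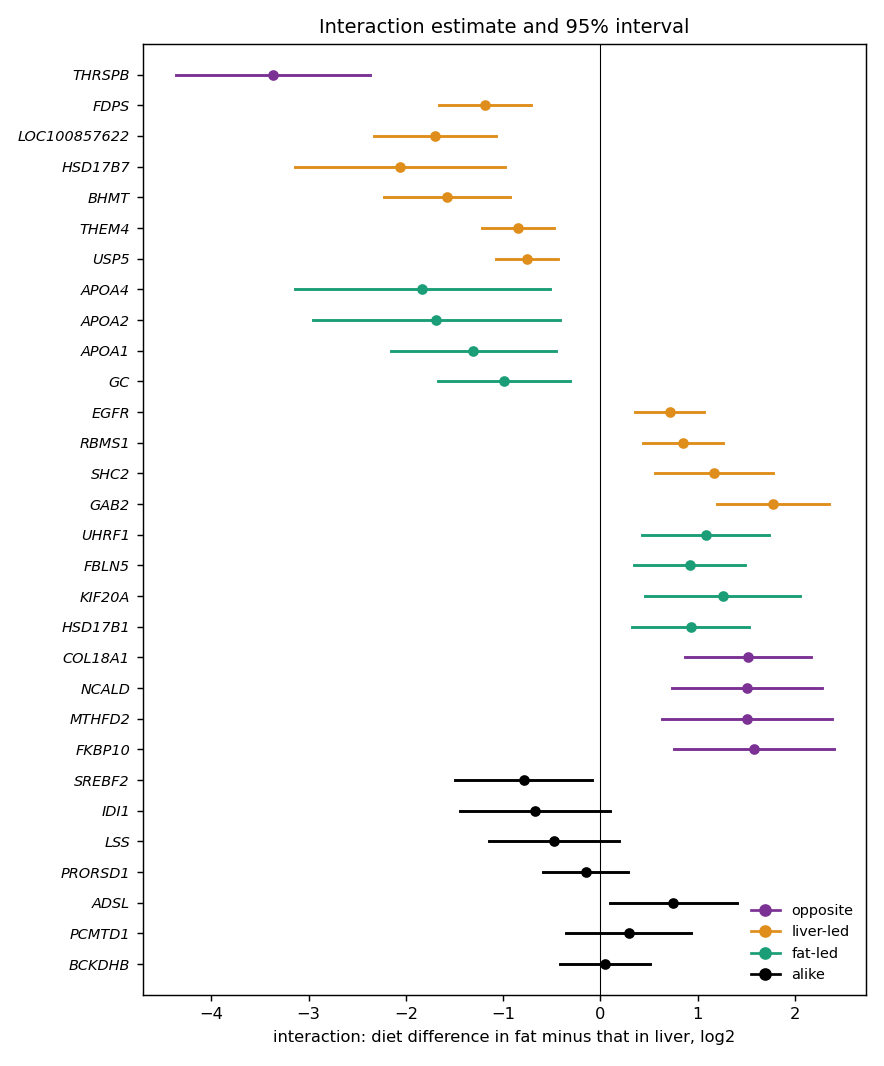
Interaction (points, log2, diet difference in fat minus that in liver) and 95% interval (bars) of 30 named genes, coloured by response class. The intervals of the opposite, liver-led and fat-led genes lie on 1 side of 0, as their class requires, and among the 7 alike genes the intervals of SREBF2 and ADSL leave out 0.

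The 140 alike genes were 83 higher and 57 lower in HN. For 35 of them HN and NN did not overlap in either tissue (2.56% in the same direction over the 10561 genes), a count that the choice of the class favours. The 95% interval of the interaction lay within 1 log2 unit of 0 on both sides for 33 of the 140. For the others a difference of that size between the tissues was within the interval. The smallest adjusted p of the averaged effect among them was 0.0571. Without HN fat 3, 24 of the 140 passed the adjusted threshold, 11 higher and 13 lower in HN, among them IDI1 and LSS (adjusted p = 0.0162 each), SREBF2 (0.0203), BCKDHB and ADSL (0.0334 each) and PRORSD1 (0.0434). Leaving out the HN fat nearest to the NN fats favours such a count. IDI1, the isopentenyl diphosphate isomerase, had 9.45, 9.04 and 5.43 FPKM in HN fat against 4.41, 3.51 and 3.64 FPKM in NN fat, and 60, 104 and 53.4 FPKM in HN liver against 24.2, 25.1 and 21.2 FPKM in NN liver, an averaged effect of 1.19 ± 0.18 (SE) and an interaction of -0.67 (95% interval -1.44 to 0.10). LSS, which closes the sterol rings, had an averaged effect of 0.98 ± 0.15 (SE) and an interaction of -0.47 (95% interval -1.14 to 0.20). PRORSD1 had 10.7, 11.3 and 10.1 FPKM in HN fat against 6.57, 7.17 and 8.05 FPKM in NN fat, and 9.77, 12.8 and 9.93 FPKM in HN liver against 5.54, 7.03 and 6.88 FPKM in NN liver, with an interaction of -0.15 (95% interval -0.59 to 0.28).

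The 57 alike genes lower in HN included PCMTD1, BCKDHB and ADSL. PCMTD1 had 32.7, 29.7 and 54.4 FPKM in HN fat against 57.3, 66.8 and 60.5 FPKM in NN fat, and 11.8, 9.28 and 11.6 FPKM in HN liver against 21.7, 19.8 and 26.4 FPKM in NN liver, an averaged effect of -0.84 ± 0.15 (SE) and an interaction of 0.29 (95% interval -0.35 to 0.94). HN fat 3 was the highest of the HN fats, and without it PCMTD1 passed the adjusted threshold (averaged effect -0.97, adjusted p = 0.0145). BCKDHB, a subunit of the branched-chain keto acid dehydrogenase, had 14.9, 16.5 and 20.7 FPKM in HN fat against 22.7, 29.4 and 27 FPKM in NN fat, and 11.8, 9.37 and 10.8 FPKM in HN liver against 15.5, 18.2 and 17.1 FPKM in NN liver, and its interaction was 0.05 (95% interval -0.42 to 0.51), among the estimates nearest to 0 of the named genes.

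ADSL, adenylosuccinate lyase of purine synthesis, had 21.5, 20.2 and 27.1 FPKM in HN fat against 37.7, 32.6 and 30.4 FPKM in NN fat, and 306, 399.8 and 259 FPKM in HN liver against 592, 989 and 782 FPKM in NN liver, an averaged effect of -0.91 ± 0.15 (SE) and an interaction of 0.75 (95% interval 0.10 to 1.40), the difference being larger in liver. The remaining unequal gene, LOC107057175, was listed at 0 in all 3 HN fats against 15.31, 15.94 and 24.78 FPKM in NN fats, and had 0, 0.04 and 0 FPKM in HN livers against 10.15, 1.46 and 0 FPKM in NN livers.

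Genes expressed in 1 tissue only were counted apart. Of 1833 genes whose mean reached 1 FPKM in fat only, 61 (3.33%) had an unadjusted interaction p under 0.05, and of 717 in liver only, 84 (11.7%). For such genes the interaction mostly reflects the diet difference in the tissue that expresses them. Within a single tissue, unadjusted calls were 4.68% in fat and 12% in liver. SLC2A2 had 0.13, 0.1 and 0.11 FPKM in HN fat against 0.13, 0.07 and 0.07 FPKM in NN fat, and 107, 82.6 and 82.6 FPKM in HN liver against 46.4, 50.9 and 40.4 FPKM in NN liver, with an interaction of -0.93 (95% interval -1.35 to -0.51). KHK had an interaction of -0.95 (95% interval -1.62 to -0.28), and NR1H4, the bile acid receptor FXR, one of 0.75 (95% interval 0.03 to 1.47), and COL13A1, a transmembrane collagen, one of 0.88 (95% interval 0.33 to 1.44). ADTRP, which hydrolyses fatty acid esters of hydroxy fatty acids, had 8.28, 12.97 and 40.87 FPKM in HN fats against 49.9, 50.6 and 46.68 FPKM in NN fats, and R3HDML had 4.19, 3.92 and 0.16 FPKM in HN fats against 0.04, 0.04 and 0.35 FPKM in NN fats, so that in each of these genes HN fat 3 lay with the NN fats.

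**Figure D4:**
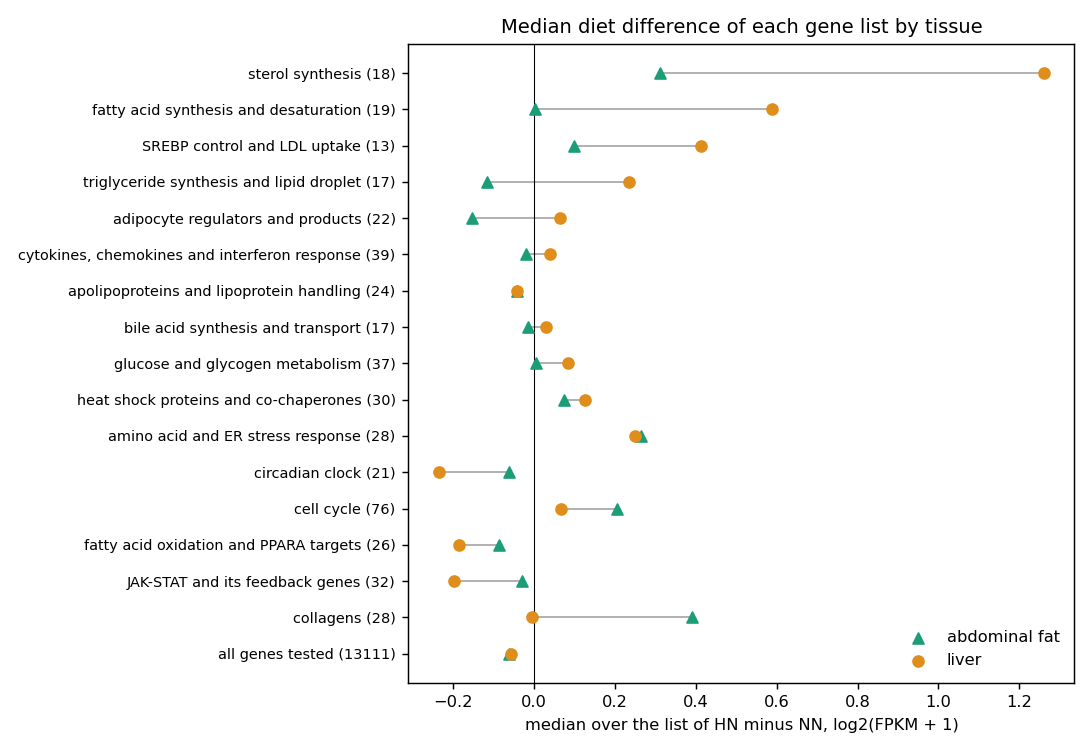
Median diet difference (horizontal axis, HN minus NN, log2(FPKM + 1)) in abdominal fat (triangles) and liver (circles) for 16 gene lists, with the number of genes tested in brackets, and for all genes tested. Sterol synthesis has the widest gap, 0.31 in fat and 1.26 in liver, and collagens the widest gap with fat higher, 0.39 in fat and -0.01 in liver. Genes under 1 FPKM in 1 tissue are included, and their differences are pressed towards 0 there.

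In the remaining lists the medians of both tissues lay near each other, but genes near 0 FPKM in 1 tissue count with a difference near 0 there. A mean of 1 FPKM in both tissues was reached by 14 of 24 apolipoprotein and lipoprotein genes, with a median interaction of -0.29. It was reached by 7 of 17 bile acid genes, with a median of 0.01. Over all genes tested, 2.49% had a positive and 2.04% a negative interaction at an unadjusted p under 0.05. The interaction median was -0.11 over 24 apolipoproteins and lipoprotein genes (at an unadjusted p under 0.05, 3 positive, APOB, APOV1 and CETP, and 5 negative, APOA1, APOA2, APOA4 and APOC3 among them), -0.21 over 22 adipocyte regulators (0 and 0), 0.15 over 32 JAK-STAT genes (1 and 0), 0.05 over 28 genes of the amino acid and endoplasmic reticulum stress response (1 and 0), 0.03 over 30 heat shock genes (1 and 0), -0.03 over 17 bile acid genes (1 and 0) and -0.18 over 39 cytokine and interferon genes (0 and 0). The 1 call in the JAK-STAT list was IGFBP3, a binding protein of insulin-like growth factors and not itself a JAK, STAT or SOCS gene. IGFBP3 had 13.9, 20.1 and 15.2 FPKM in HN fat against 14.6, 17.6 and 14.6 FPKM in NN fat, and 1.93, 2.16 and 2.24 FPKM in HN liver against 4.75, 3.75 and 3.91 FPKM in NN liver, and an interaction of 0.77 (95% interval 0.30 to 1.25).

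SOCS2 and CISH, feedback inhibitors of growth hormone and cytokine signalling, were examined because the study centres on that pathway. SOCS2 had 18.8, 17 and 20.7 FPKM in HN fat against 35.8, 23.1 and 18.4 FPKM in NN fat, and 9.68, 14.2 and 26.8 FPKM in HN liver against 27.6, 35.8 and 33 FPKM in NN liver, with an averaged effect of -0.69 ± 0.22 (SE) and an interaction of 0.61 (95% interval -0.37 to 1.59). CISH had 54.6, 157 and 60 FPKM in HN fat against 82.7, 46.7 and 53.1 FPKM in NN fat, and 59.9, 187 and 85.5 FPKM in HN liver against 103, 117 and 279 FPKM in NN liver, with overlap in both tissues and an interaction of 1.03 (95% interval -0.58 to 2.65). Of 15 genes of lipid metabolism that the study names, 5 (CPT1A, CIDEC, FASN, APOA4 and APOB) had an unadjusted interaction p under 0.05 by limma (4.53% over all genes) and 0 an adjusted one. The study chose its lipid genes partly because they differed between dwarf and normal birds, and its normal groups are those used here. The 15 are therefore no independent list to set beside that share.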

How the data were processed

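RNA of liver and abdominal fat of normal Xinghua chickens was sequenced on the BGISEQ-500 platform, in 3 libraries per diet and tissue. The authors deposited FPKM per gene and library for 18332 genes, and 298 of these had no value above 0. FPKM is already scaled for transcript length and mapped reads, and it does not give depth, so intervals cover the spread between libraries only. The submitters' processing notes name HISAT2 2.0.4, Bowtie2 2.2.5 and RSEM 1.2.12 without their roles, and the genome build is not given in the sources used here, so neither coordinates nor sequences are printed. A symbol was shared by several genes in 60 cases, which were left out of the naming rule.

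Groups came from the sample labels. limma 3.58.1 in R 4.3.3 was run on log2(FPKM + 1) with a group-means model, eBayes with trend, two-sided tests and Benjamini-Hochberg adjustment, on genes whose mean reached 1 FPKM in at least one tissue. The 4 groups shared 1 variance per gene for the interaction and the averaged effect, and single tissues were fitted on their 6 libraries. The script was tested on simulated data. Other steps used pandas 2.3.3 and numpy 2.4.6, figures matplotlib 3.10.9, all in Python 3.11.15.

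The members, the 16 gene lists and the 10 marker lists were chosen with earlier results of these data known. The text names genes with an adjusted p under 0.05, up to 4 genes per direction and class by smallest p without overlap of HN and NN, up to 4 genes per list by smallest interaction p, and SOCS2, CISH and lipid genes of the study, and some genes that the rule names are not reported here. The labels' replicate numbers were checked for pairing. Deviations of liver and fat libraries with the same diet and number correlated at 0.137 to 0.460 in all 6 pairs (mean 0.293). A block of diet and number was therefore treated as a pairing, although the sources do not state that they are the same birds. The mean of -0.145 for different numbers is no separate comparison, because deviations sum to 0 within each group. The pairing was fitted for the interaction only, not for the averaged effect. HN and NN libraries of the same number, which come from different birds, correlated at -0.022 to 0.407 in liver (mean 0.165) and 0.046 to 0.227 in fat (mean 0.166). They were not paired. A correlation by number therefore does not by itself show a shared bird. Alternatives were the pseudocount, the filter, normalization, array weights, replicate blocks, separate variances, class limits and leaving out each library.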

Additional observations from a re-analysis of the deposited data

How the results depend on the processing

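Of 2055 alternative values of 91 results on named genes, 2007 kept their direction and their side of the adjusted threshold, 21 passed it newly, 26 no longer passed it and 1 reversed. Most named genes were chosen by small p-values in these same libraries, which favours a kept direction. No interaction passed the threshold in the main fit, so an interaction kept its side by not passing. The 26 losses could fall only on the 3 averaged calls. The reversal was SCD, whose interaction was 0.065 without HN fat 3 and NN fat 3, an alternative chosen after seeing the data. HN fat 3 was likewise singled out after its values were seen. For the interaction, adjusted calls were 0, but 2 with array weights, 3 with a replicate block by number, 4 with a replicate block by diet and number, 1 without both replicates 3 and 0 to 3 leaving out 1 library. For the averaged effect, 3 adjusted calls became 5 at a pseudocount of 0.1, 6 without a filter, 5 with quantile normalization, 6 with array weights, 34 without both replicates 3 and 0 to 86 leaving out 1 library, with the 86 without HN fat 3. Within fat, the 1 adjusted call became 0 without both replicates 3 and 0 in a fit of all 12 libraries, and unadjusted calls became 1385 without both replicates 3 and 268 to 1503 leaving out 1 library. Within liver, adjusted calls became 26 in a fit of all 12 libraries, and unadjusted calls became 788 at a mean of at least 5 FPKM and 576 to 1694 leaving out 1 library. With a limit of 1 on the log2 scale the classes held 0 opposite, 50 liver-led, 12 fat-led, 1 unequal, 386 small and 14 alike genes, and at a pseudocount of 0.1 they held 29 opposite, 7 unequal and 215 alike genes. Without both replicates 3 they held 42 opposite, 102 liver-led, 215 fat-led, 9 unequal and 306 alike genes, with median interactions of 0.62 for collagens and -0.062 for the circadian clock. Leaving out 1 library gave 16 to 39 opposite, 140 to 408 liver-led, 30 to 169 fat-led, 1 to 8 unequal, 84 to 249 small and 90 to 280 alike genes, with the highest counts of opposite, fat-led, unequal and alike genes without HN fat 3 and of liver-led genes without HN liver 1. It also gave median interactions of -1.09 to -0.63 for sterol synthesis, -0.43 to -0.14 for SREBP control, 0.17 to 0.54 for collagens, -0.027 to 0.13 for the clock and -0.19 to 0.011 for bile acid genes. The cause of these changes was not tested. Depth is unknown, and genes at a few FPKM are the least certain.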
